A study of Mus musculus with 10 samples.

Results

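Probes for 7 mouse genes of the ubiquitin conjugation machinery were examined in heart RNA from young and aged mice. The genes were 2 ubiquitin conjugating enzymes, Ube2k and Ube2q2, and 5 genes of ubiquitin ligases, Cul3, Fbxw22, Herc4, Herc6 and Ube3c. They were picked by symbol from a supplementary list of mRNA probes that were lower in aged hearts, of which 690 probes for 674 genes were held here. Herc4 had 2 probes and every other gene 1, which gave 8 probes. Because that list was made from the contrast of age, the age differences below describe how the probes were chosen and carry no test.

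The groups were 5 male C57BL/6 mice aged 3 months (3m) and 5 male C57BL/6 mice aged 20 months (20m), with no treatment and 1 one-colour array per heart. According to the methods, aged mice came from another supplier than young mice, so age and supplier cannot be told apart. The scan identifiers in the file headers put 3m replicates 1 and 2 on one slide, called slide 1 here, and the other 3 young hearts with all 5 aged hearts on slide 2.

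Array quality differed between groups. The 75th percentile of spot intensity was 129 to 209 on 3m arrays and 109 to 144 on 20m arrays, and 61.3% to 73.3% and 64.0% to 67.3% of the probes were well above background. Within 3m, the 75th percentile was 136 and 129 on slide 1 and 176 to 209 on slide 2. The shares well above background were 65.1% and 61.3% on slide 1 and 68.2% to 73.3% on slide 2. No spot was saturated. The ratio of the 3' to the 5' Gapdh control probes, on the log2 scale, was 1.70 to 1.71 on slide 1, 2.14 to 2.17 for the 3m hearts of slide 2 and 2.33 to 3.06 in 20m, so that the groups did not overlap. Of 41 marker genes for heart cell types, 2 could be named, the endothelial gene Tek and the T cell gene Cd28, both from the list of lower probes, with log2 differences of -1.73 and -1.39. No cardiomyocyte marker was among them, so the tissue label was not checked against its markers. In bulk tissue, fewer cells of a type and less RNA per cell cannot be told apart.

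Ubiquitin is attached to proteins by a relay of enzymes. An activating enzyme (E1) charges ubiquitin and hands it to a conjugating enzyme (E2), and a ligase (E3) brings the charged E2 to a chosen substrate. HECT ligases such as Ube3c, Herc4 and Herc6 take the ubiquitin onto themselves before passing it on, whereas cullin ligases are scaffolds that bind an E2 through a RING protein and a substrate through an adaptor. In heart muscle, whose contractile proteins are turned over for the life of the cell, these enzymes mark proteins for the proteasome and also steer signaling.

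Each array probe is a 60-base oligonucleotide, and its sequence decides which transcripts are read. Probes are shown for Herc4, which has 2 probes, for Ube2q2, whose age groups lay farthest apart among probes measured in both, for Fbxw22, which reached background in aged hearts, and for Cul3. Capitals mark G and C.
Herc4 (NM_026101): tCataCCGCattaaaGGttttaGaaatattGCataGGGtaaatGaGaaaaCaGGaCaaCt
Herc4 (NM_030114): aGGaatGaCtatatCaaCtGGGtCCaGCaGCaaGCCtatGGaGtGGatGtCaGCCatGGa
Ube2q2: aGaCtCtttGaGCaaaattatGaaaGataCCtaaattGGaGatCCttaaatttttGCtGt
Fbxw22: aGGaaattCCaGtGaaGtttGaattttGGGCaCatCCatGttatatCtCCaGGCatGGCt
Cul3: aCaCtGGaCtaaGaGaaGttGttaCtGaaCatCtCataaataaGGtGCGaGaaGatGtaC
The longest run of bases that the Herc4 probes shared was 5 bases long, so they read separate stretches. GC content over the 8 probes ran from 23.3% for Ube2k to 50% for Ube3c and for Herc4 (NM_030114), against a median of 45.0% over the 690 probes of the list. The Ube2k probe held the polyadenylation hexamer AATAAA, which 11.7% of the list held.

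All values that follow are log2 of the quantile-normalized intensity with a floor of 5, which is 2.32 on this scale, and each difference is 20m minus 3m. They measure a probe against itself between hearts and give no order of abundance between genes. A probe was called lower where the model across all probes gave an adjusted p under 0.05 and a log2 difference of at least 1. By that rule 8 of 8 probes were lower in 20m, beside 9.65% of the 16720 detected mRNA probes (1613), and the rule for the members fixes this count. In all 8 every 20m heart was below every 3m heart, as in 16.2% of mRNA probes. The median difference was -1.75 over the members and -0.05 over all detected mRNA probes. The smallest member differences were those of Cul3 and Ube2k, both at -1.44, and over the whole list the differences ran from -5.30 to -1.35. Probes beyond the end of the list as held here were not named.

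Ube2k makes ubiquitin chains of the kind that the proteasome reads. Its gene lies at chr5:65537233-65598988 on the plus strand of GRCm38. In the 3m hearts, replicates 1 to 5, the log2 values were 4.90, 4.80, 5.57, 5.02 and 4.97, and in the 20m hearts 3.03, 4.02, 3.64, 3.63 and 3.72. The groups were 0.78 apart at their nearest, and 3m replicate 3 stood above the other young hearts. The means were 5.05 ± 0.30 and 3.61 ± 0.36 (SD, n = 5 each), a difference of -1.44 with a standard error of 0.21. The probe was well above background on all 5 3m arrays and on 3 of the 5 20m arrays, with replicates 1 and 4 below. The processed intensity before normalization was 22.0 in the dimmest young heart and 16.4 in the brightest aged heart.

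Ube2q2 belongs to another branch of the E2 family and lies at chr9:55148854-55207529 on the plus strand. Its 3m values were 7.69, 8.09, 7.16, 7.04 and 7.22 and its 20m values 5.29, 5.07, 4.80, 4.60 and 5.18. The lowest young heart was 1.74 above the highest aged heart, the widest gap of the 7 probes that were measured in both groups. Means were 7.44 ± 0.44 and 4.99 ± 0.28 (SD, n = 5 each), and the difference was -2.45 (standard error 0.22), or 5.46-fold lower. All 10 arrays read it well above background.

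**Figure D1:**
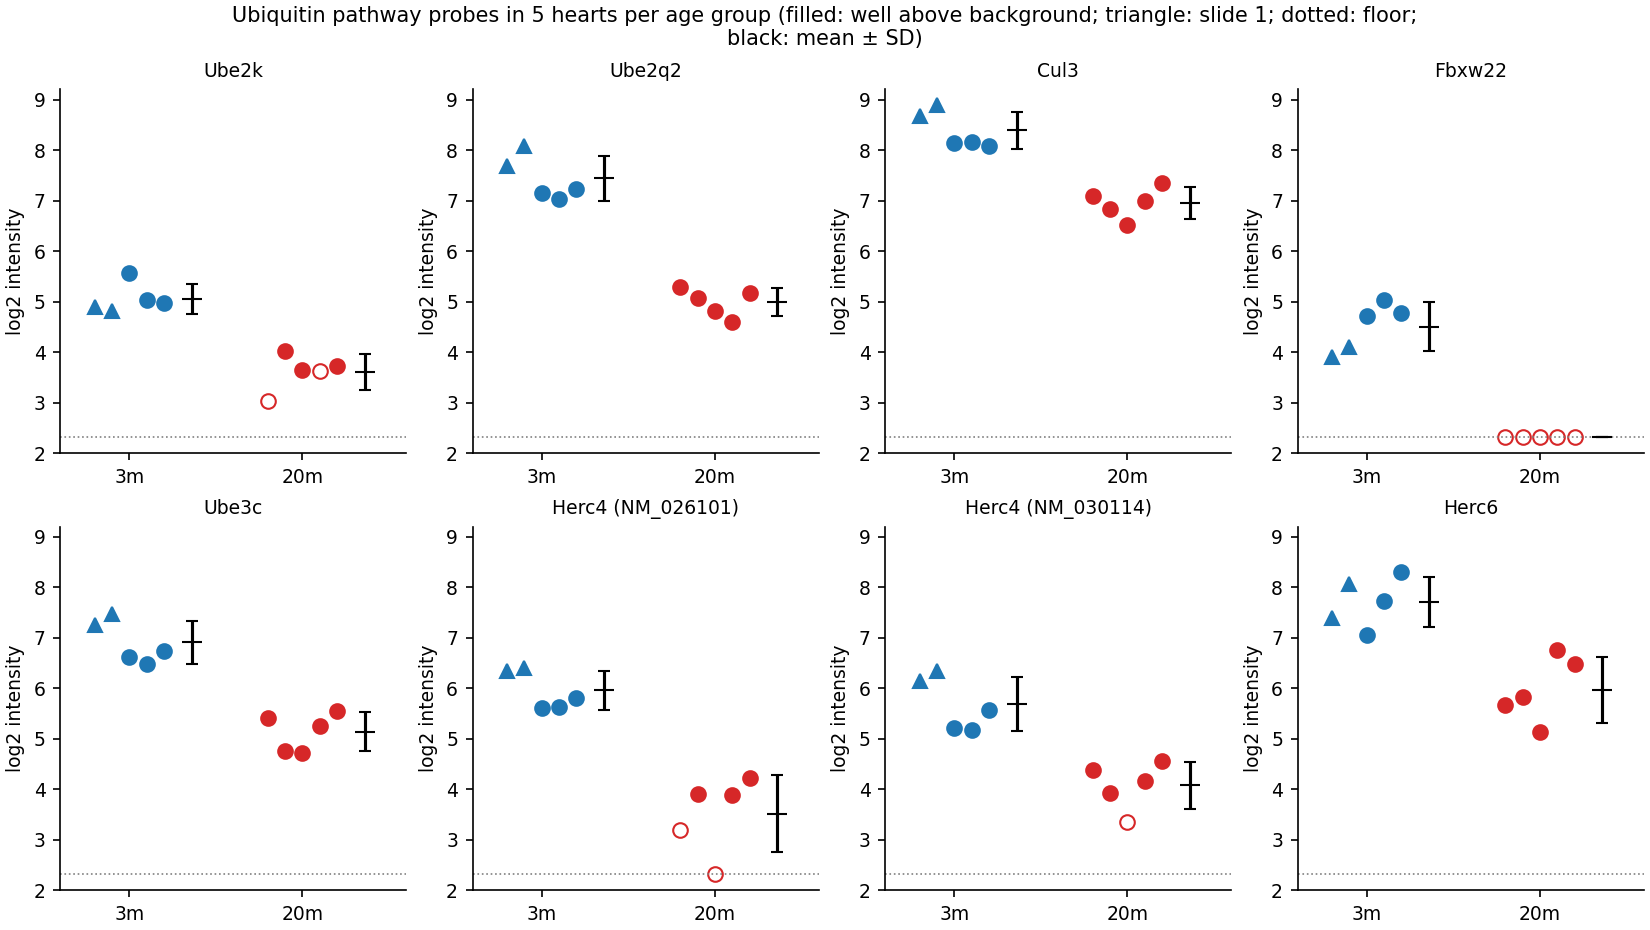
Log2 intensity of the 8 probes in each heart, 5 per age group in the order of the replicates, with triangles for slide 1, circles for slide 2, filled symbols for arrays well above background, black bars for mean ± SD and a dotted line at the floor of 2.32. Every 20m heart is below every 3m heart in each panel, and the 5 aged hearts of Fbxw22 sit on the floor.

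Cul3 is the scaffold of a class of cullin ligases that bind their substrates through BTB-domain adaptors, among them Keap1, the regulator of the oxidative stress factor Nrf2. It lies at chr1:80264923-80340480 on the minus strand. The 3m hearts read 8.68, 8.89, 8.14, 8.16 and 8.08 and the 20m hearts 7.08, 6.82, 6.51, 7.0 and 7.34. Here the 2 young hearts of slide 1 were the highest, and aged replicate 3 was the lowest. Means were 8.39 ± 0.37 and 6.95 ± 0.31 (SD, n = 5 each), so Cul3 was 2.71-fold lower, a log2 difference of -1.44 (standard error 0.21). The signal was well above background on all 10 arrays.

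Fbxw22 encodes an F-box protein with WD40 repeats, a type of protein that serves as substrate receptor in cullin ligases built on Cul1. Its gene spans chr9:109378400-109404296 on the minus strand. Young hearts read 3.91, 4.10, 4.72, 5.04 and 4.76, and all 5 aged hearts were at the floor of 2.32. No 20m array read the probe well above background, and all 5 3m arrays did. The median of the spot was 19 to 27 in aged hearts, whose mean local background was 18.6, and 32 to 67 in young hearts. The level in 20m therefore has only a bound. Against the lowest signal that counted as well above background, Fbxw22 was at least 2.18-fold lower in 20m, with a measured 3m mean of 4.51.

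Ube3c is a HECT ligase that works at the proteasome and lengthens ubiquitin chains on bound substrates. The gene is at chr5:29569242-29676092 on the plus strand. The 3m values were 7.24, 7.46, 6.62, 6.48 and 6.74, and the 20m values were 5.40, 4.76, 4.71, 5.26 and 5.56. As for Cul3, the hearts of slide 1 were the highest of the young group. The means of 6.91 ± 0.42 and 5.14 ± 0.38 (SD, n = 5 each) differed by -1.77 (standard error 0.24), which is 3.41-fold, and every array was well above background.

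Herc4 is a small HECT ligase with a repeat domain like that of the Ran exchange factor RCC1, and was read by both of the probes printed above. The transcripts of the probes span chr10:63243911-63317874 and chr10:63243923-63317878 on the plus strand. With the probe for NM_026101 the 3m hearts read 6.33, 6.39, 5.61, 5.63 and 5.81 and the 20m hearts 3.20, 3.91, 2.32, 3.89 and 4.22. Aged replicate 3 was at the floor. It was well above background on 5 of 5 3m arrays and on 3 of 5 20m arrays, with replicates 1 and 3 below. The means were 5.96 ± 0.38 and 3.51 ± 0.76 (SD, n = 5 each), a difference of -2.45 (standard error 0.33).

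With the probe for NM_030114 the 3m hearts read 6.15, 6.35, 5.20, 5.18 and 5.57 and the 20m hearts 4.38, 3.92, 3.36, 4.16 and 4.56. On 5 of 5 3m arrays and 4 of 5 20m arrays it was well above background, and again replicate 3 was the aged heart below. The means were 5.69 ± 0.54 and 4.08 ± 0.47 (SD, n = 5 each), with a difference of -1.61 (standard error 0.28).

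The difference between the Herc4 probes depended on how background was handled. Set to the 3m mean of each probe, NM_026101 was lower than NM_030114 in 5 of 5 aged hearts, with probe differences of -1.45, -0.27, -1.30, -0.54 and -0.60 in replicates 1 to 5. The mean of this probe difference was -0.83, and its SD was 0.51 in 20m and 0.16 in 3m. It was -0.20 with the normexp correction and -0.33 with a floor of 20, settings described below, and -1.03 with a floor of 1. The 2 widest of the 5 values at a floor of 5 were those of the aged hearts in which NM_026101 was not well above background. The value of replicate 3 was at the floor.

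**Figure D2:**
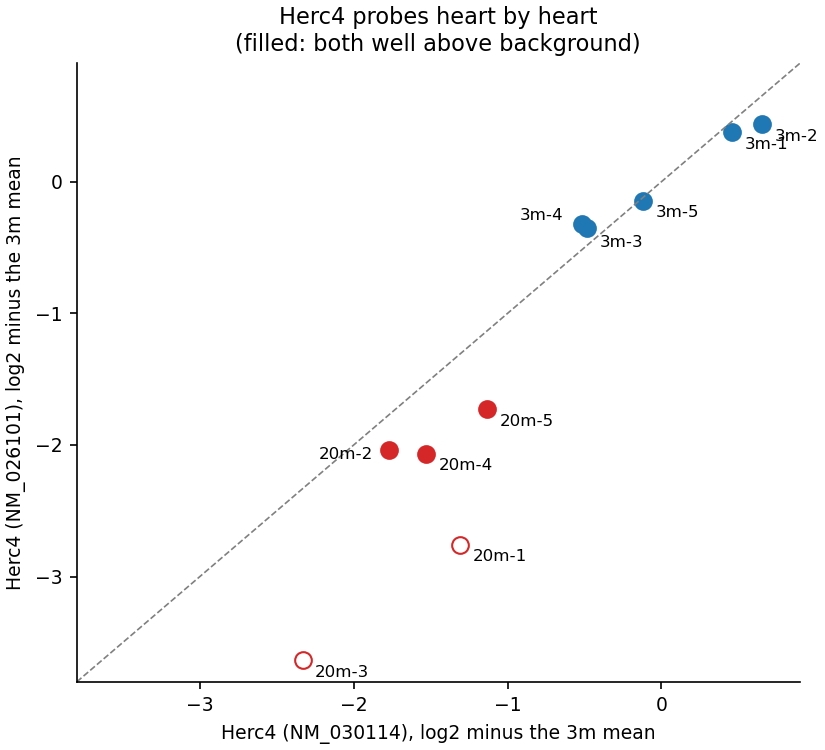
Each point is 1 heart, with the log2 value of the Herc4 probe for NM_030114 on the x axis and of that for NM_026101 on the y axis, both minus the 3m mean of the probe; the dashed line marks equal change and open symbols mark hearts in which a probe was not well above background. With the floor of 5 used here the 5 aged hearts (red) lie below the line, farthest in replicates 1 and 3, with probe differences of -1.45 and -1.30.

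Herc6, in mouse the main ligase for the ubiquitin-like protein ISG15 and a gene induced by interferon, lies at chr6:57581000-57664632 on the plus strand. Its 3m values were 7.39, 8.07, 7.06, 7.73 and 8.30 and its 20m values 5.66, 5.82, 5.12, 6.76 and 6.49. With a gap of 0.30 the age groups came nearer to each other than for any other of the 8 probes. Means were 7.71 ± 0.50 and 5.97 ± 0.66 (SD, n = 5 each), a difference of -1.74 (standard error 0.32), or 3.34-fold lower, and all 10 arrays were well above background.

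A difference between the slides within the 3m group is another contrast than that of age. It is not free of the choice of probes, since the 2 hearts of slide 1 count in the 3m mean and all 20m hearts were on slide 2, so a probe that reads higher on slide 1 also has a larger age difference. Counts over the members are therefore given as a description beside those of all mRNA probes. The model held age group and slide, and its slide term rests on 2 young hearts of slide 1 against 3 of slide 2. In limma, 0 of 8 probes passed an adjusted p of 0.05 with a log2 difference of at least 1, beside 5.36% of mRNA probes (897). Under 75th percentile scaling 1 of 8 did, Fbxw22 with -1.08, beside 6.42% of mRNA probes. An unadjusted p under 0.05 was found for 5 of 8 probes and for 38.3% of mRNA probes, and limma's adjusted p was under 0.05 for 2 of 8 and for 17.5% of mRNA probes.

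Fbxw22 was lower on slide 1 by a log2 difference of -0.84 (limma adjusted p = 0.00985), where 9.69% of mRNA probes were lower with an adjusted p under 0.05. It passed the filter on dim probes through the 3m group alone, and its 5 aged values, all at the floor, add no spread to this model. In the 5 young hearts alone, a fit added after seeing the data, the standard error was 0.16 and limma's adjusted p 0.0190. Ube2q2 was higher on slide 1 by 0.75 (standard error 0.23, limma adjusted p = 0.0454), where 7.79% of mRNA probes were higher with an adjusted p under 0.05. For Ube2q2 the adjusted p rose above 0.05 when any 1 of the 5 young arrays was left out, with differences of 0.55 to 0.95. It also did so without 20m replicate 2 or 5 and with no filter on dim probes. For Fbxw22 the adjusted p rose above 0.05 without 3m replicate 1 (-0.74).

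The other slide differences were 0.93 for Herc4 (NM_030114), 0.74 for Ube3c, 0.68 for Herc4 (NM_026101), 0.66 for Cul3, 0.03 for Herc6 and -0.33 for Ube2k, with limma adjusted p from 0.0579 to 0.964. More of them passed an adjusted p of 0.05 under other settings. In the young hearts alone 6 of 8 did, all but Herc6 and Ube2k, beside 33.4% of mRNA probes. With normexp 5 of 8 did, namely Cul3, Fbxw22, Herc4 (NM_030114), Ube2q2 and Ube3c, beside 22.9% of mRNA probes, and with a floor of 20, at which all aged values of Herc4 (NM_026101) lie, both Herc4 probes joined Fbxw22 and Ube2q2, 4 of 8 beside 23.6%. Herc4 (NM_030114) passed under 75th percentile scaling as well, and Cul3, Ube3c and Herc4 (NM_030114) did so without 20m replicate 3.

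In direction, 6 of 8 probes read higher on slide 1, with a median of 0.67, while over all mRNA probes the median was 0.18 and 60.03% were above 0. In 5 of the 8 probes the 2 hearts of slide 1 were the highest young hearts, a pattern of 40.8% of mRNA probes, and in Fbxw22 and Ube2k they were the lowest, as in 25.0%. Before normalization, Herc4 (NM_026101) had processed intensities of 72.7, 72.8, 65.9, 69.6 and 70.3 in 3m replicates 1 to 5, with slide 1 near slide 2. Those of Fbxw22 were 11.9, 12.8, 35.7, 45.7 and 34.4 and those of Ube2k 25.0, 22.0, 64.4, 45.3 and 39.4, with slide 1 well below slide 2. These intensities are not scaled for the brightness of the array. The 75th percentile over all probes was 136, 129, 200, 209 and 176 in the same order, so the arrays of slide 1 were dimmer as a whole.

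**Figure D3:**
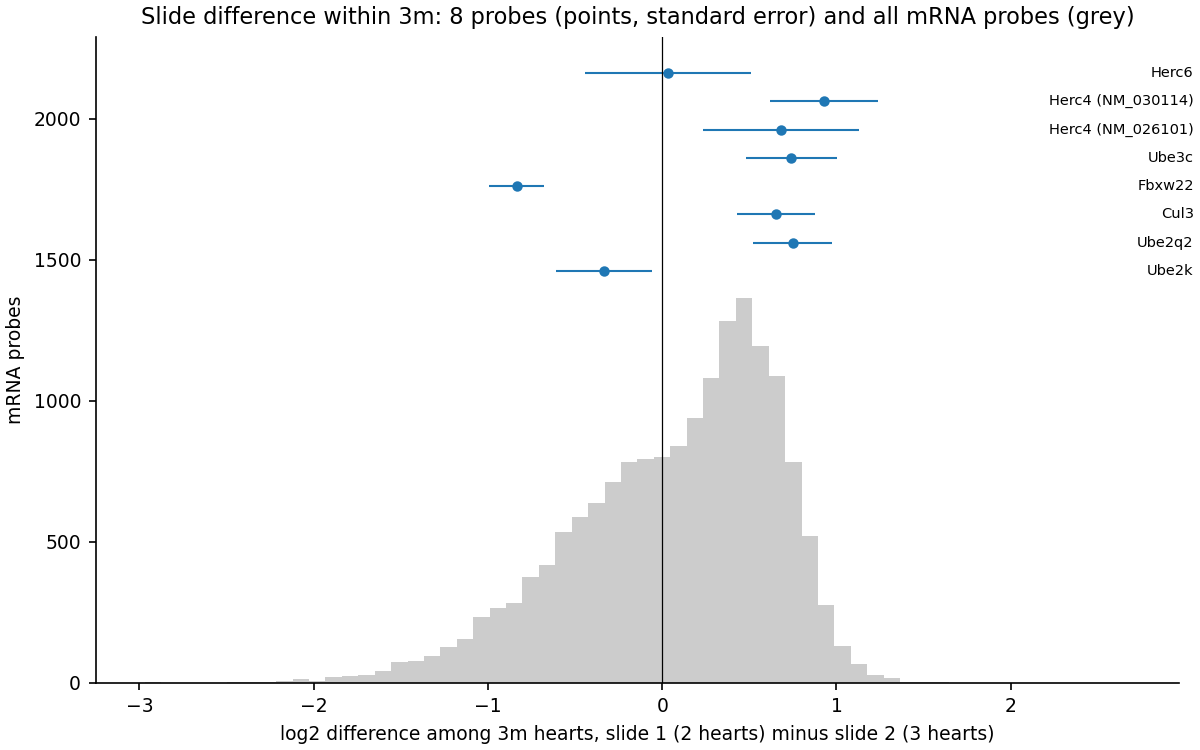
Grey bars count the detected mRNA probes by their log2 difference among 3m hearts, slide 1 (2 hearts) minus slide 2 (3 hearts), and blue points with standard errors give the 8 probes, stacked above for legibility. Fbxw22 (-0.84) and Ube2k (-0.33) lie left of 0, and the other 6 probes right of it.

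On slide 2 alone, with 3 young and 5 aged hearts, the age differences were -1.58 for Ube2k, -2.15 for Ube2q2, -1.18 for Cul3, -2.52 for Fbxw22, -1.47 for Ube3c, -2.17 and -1.24 for Herc4 (NM_026101 and NM_030114) and -1.72 for Herc6. All 8 were called lower, beside 6.42% of mRNA probes. These hearts are among those that made the list, so this count adds no support to the choice of probes. The values of Fbxw22 are differences to the floor here and below. Relative to all 10 arrays, the differences were smaller in size in Cul3, Ube2q2, Ube3c, Herc6 and both Herc4 probes and larger in Fbxw22 and Ube2k, the probes that read lower on slide 1. The sign of the slide difference fixes this direction, since all aged hearts were on slide 2.

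The Gapdh ratio moved with age, as given above, and with it as a covariate the differences were -1.72 for Ube2k, -1.98 for Ube2q2, -0.74 for Cul3, -2.65 for Fbxw22, -0.96 for Ube3c, -1.32 and -0.57 for Herc4 (NM_026101 and NM_030114) and -1.03 for Herc6. Ube2k, Ube2q2, Fbxw22 and Herc4 (NM_026101) kept their call, and the other 4 lost it, where 3.18% of mRNA probes were called lower. Cul3 and Ube3c missed only the log2 limit (limma adjusted p = 0.0356 and 0.0223). Herc6 missed only the limit on limma's adjusted p (0.173), and Herc4 (NM_030114) missed both limits (limma adjusted p = 0.142). The ratio did not overlap between the age groups, so a kept or lost call cannot separate it from age. Aged replicate 3 had the highest Gapdh ratio, 3.06, and the lowest 75th percentile, 109. It was the lowest aged heart for 5 of the 8 probes, namely Cul3, Ube3c, Herc6 and both Herc4 probes. The part of RNA quality in these differences was not tested.

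The size of the differences depended on how background was handled, most of all for dim probes. With the normexp correction, which fits a background to each array and adds an offset of 50, the differences shrank to -0.36 for Ube2k, -0.48 for Fbxw22, -0.58 and -0.78 for the Herc4 probes for NM_030114 and NM_026101, -0.95 for Ube3c, -1.10 for Herc6, -1.12 for Cul3 and -1.32 for Ube2q2. Under it Cul3, Herc6 and Ube2q2 were called lower, 3 of 8, and the share of mRNA probes called lower was 3.27%. The other probes kept a limma adjusted p under 0.05 and missed only the log2 limit of 1. With a floor of 20 in place of 5, Fbxw22 went to -0.31 and Ube2k to -0.73, and both lost their call, Ube2k on the log2 limit alone. Herc4 (NM_026101) went to -1.63 and kept its call, which left 6 of 8 called beside 6.76% of mRNA probes. A floor of 1 moved Fbxw22 to -3.35.

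**Figure D4:**
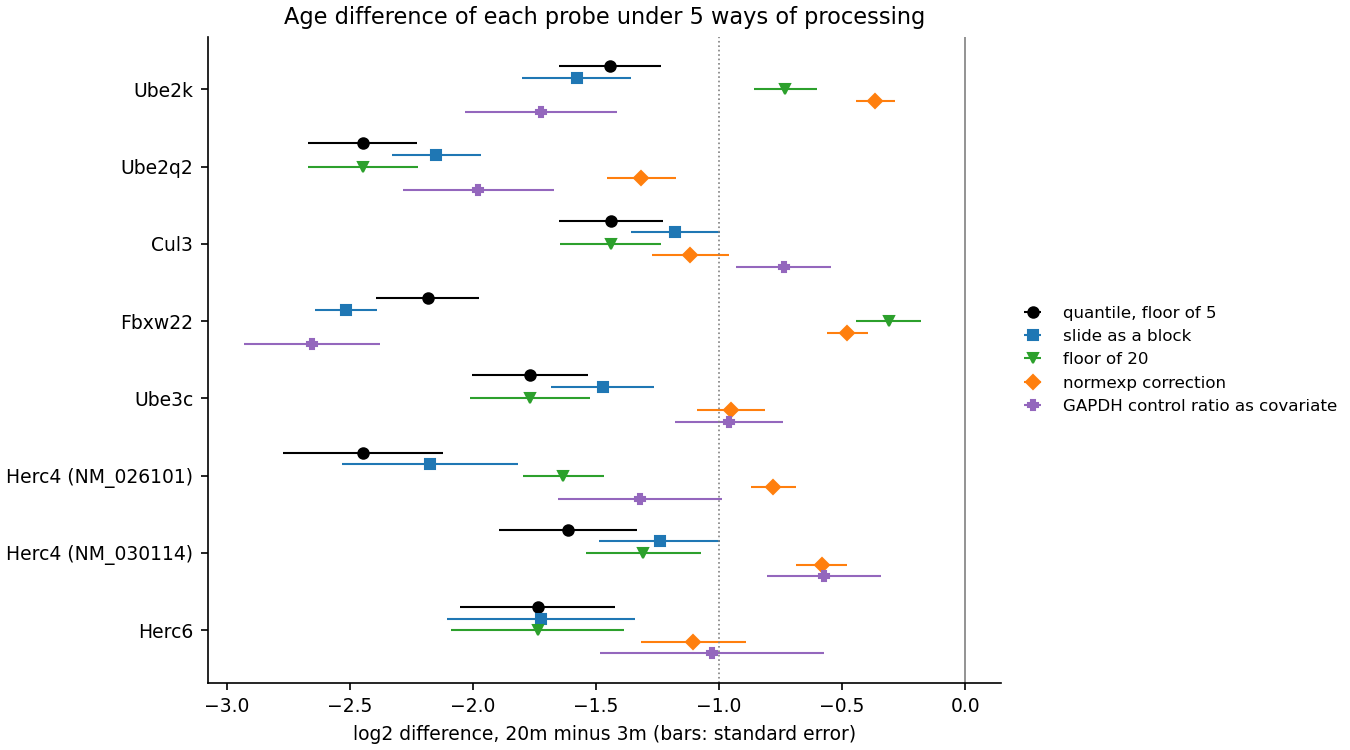
Log2 difference, 20m minus 3m, of each of the 8 probes with its standard error under 5 ways of processing, the dotted line marking the limit of -1. Every point lies left of 0, and over the 5 settings drawn the spread is widest for Fbxw22, from -2.65 to -0.31.

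The members varied together within groups to unequal degrees. After the mean of each age group on each slide was removed, Pearson's r over the 10 arrays was 0.91 between Herc4 (NM_030114) and Ube3c (Spearman's rho 0.98), 0.90 between Herc4 (NM_030114) and Cul3 (rho 0.81) and 0.88 between Cul3 and Ube3c (rho 0.82). The 2 arrays farthest from the median of 1 probe of the pair were then left out, Herc4 (NM_030114) in the first pair and Cul3 in the others. Without them r was 0.86, 0.54 and 0.77. These are descriptions over arrays that share slides, depth and normalization, and 28 pairs were computed. Between Ube2k and the other probes r ran from -0.42 to 0.26. The Herc4 probes had r = 0.74 with each other but rho = 0.36. Without the 2 arrays farthest from the median of NM_026101 r was -0.28, so the r of 0.74 rested on those arrays. Ordered by r to Herc4 (NM_026101), the other Herc4 probe was number 153 of 689 probes of the list.

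Among probes of other genes in the list, the one most like each member by r over the 10 arrays was Gabpa for Cul3 (0.97), Gng12 for Fbxw22 (0.97), Rbm8a for Herc4 (NM_026101) (0.98), Mzt1 for Herc4 (NM_030114) (0.98), Gm12185 for Herc6 (0.95), Rbms2 for Ube2k (0.80), Trove2 for Ube2q2 (0.90) and Psma8 for Ube3c (0.98). Spearman's rho was 0.78 for Ube2k with Rbms2 and 0.89 to 0.99 for the rest. Without the 2 arrays farthest from the median of the member, r was 0.30 for Ube2k with Rbms2, so that relation rested on them, and it stayed at 0.79 to 0.95 for the other 7. For Fbxw22 the 5 aged values were all at the floor, so its r, rho and median r rest on the 5 young hearts. The median r over all list probes was 0.64 for Cul3, 0.60 for Ube3c, 0.58 and 0.53 for the Herc4 probes and 0.47 for Herc6, but 0.09 for Ube2q2, 0.01 for Fbxw22 and -0.03 for Ube2k.

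The rest of the pathway could be seen only through the same list. Of 266 genes in 9 lists of ubiquitin pathway genes, 18 could be named, with 20 probes, and all 20 were lower by the rule that made the list. Beside the 7 genes above, 11 genes with 12 probes were in the list. Upstream, Nae1, a subunit of the enzyme that activates the cullin modifier NEDD8, differed by -1.78, and Ube2c, the E2 of the anaphase-promoting complex, by -2.16. Ligases were represented by Hace1 (-2.02), of the HECT type, by Cblb (-1.54), a RING ligase of signaling receptors, by Anapc1 (-1.91), a scaffold subunit of the anaphase-promoting complex, and by Klhl13 (-1.58), an adaptor of Cul3. Of the 5 20m arrays, Hace1 was well above background on 1, Klhl13 on 2 and Anapc1 on 3. Sumo3, a ubiquitin-like modifier, differed by -1.65, and the proteasome subunits Psmd1 and Psma8 by -1.60 and -1.53, with Psma8 well above background on 3 and Sumo3 on 4 of the 20m arrays. The deubiquitinase Usp15 had 2 probes. The one for NM_001301628 differed by -1.58 with all 10 arrays well above background, whereas that for NM_027604 had a 3m mean of 5.27 and was not well above background on any 20m array. Of these 12 probes, chosen as lower in 20m like the members, 11 read higher on slide 1, beside 60.03% of mRNA probes, and Ube2c did not (-0.66), which is the direction of Fbxw22 and Ube2k.

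Among the promoters that could be matched, that of Herc6 was poor in CG dinucleotides and the others were rich in them. In the RefSeq table (GRCm38.p6) 6 of the 7 genes matched, with 7 windows of 300 bases, 250 before and 50 after the start, of which 2 are for Ube2q2. Fbxw22 had no promoter window there. CG dinucleotides, which are dense at the promoters of many broadly used genes, numbered 53 in the window of Ube3c, 41 and 40 in those of Ube2q2, 39 for Ube2k, 29 for Cul3, 20 for Herc4 and 4 for Herc6, against a median of 7 over 32851 windows. Fewer than that were found in 99.5% of windows for Ube3c and in 31.4% for Herc6. The extremes are shown as the 250 bases before the start, with CG in capitals, Ube3c at chr5:29568992-29569241 and Herc6 at chr6:57580742-57580991, both on the plus strand.
Ube3c: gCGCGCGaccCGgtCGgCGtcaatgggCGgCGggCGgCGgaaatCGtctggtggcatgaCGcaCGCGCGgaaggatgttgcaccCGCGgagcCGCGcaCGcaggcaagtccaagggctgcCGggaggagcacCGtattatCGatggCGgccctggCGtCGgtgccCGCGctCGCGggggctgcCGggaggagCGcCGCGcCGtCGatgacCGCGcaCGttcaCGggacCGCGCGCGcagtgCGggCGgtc
Herc6: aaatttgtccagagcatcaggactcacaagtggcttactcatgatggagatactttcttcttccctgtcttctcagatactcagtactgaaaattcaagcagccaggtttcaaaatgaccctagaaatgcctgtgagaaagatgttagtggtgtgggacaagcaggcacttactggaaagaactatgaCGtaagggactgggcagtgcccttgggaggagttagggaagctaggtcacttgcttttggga
Searched on both strands, the GC box GGGCGG was in 6 of 7 windows, all but that of Herc6, and in 35.7% of all windows. TATAAA was in 0 of 7 and in 13.6% of all, and a core of interferon response elements (GAAA followed by another GAAA after a gap of 2 bases) in 0 of 7 and in 3.44% of all. A match of letters is a description and not a binding site.

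**Figure D5:**
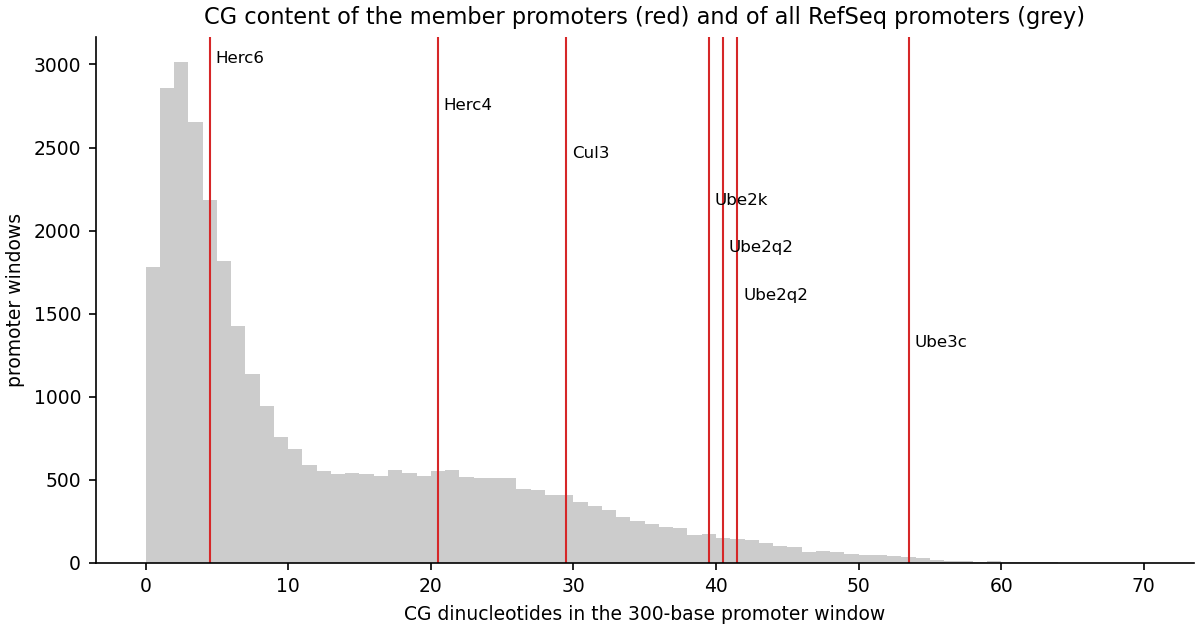
Grey bars count all 32851 RefSeq promoter windows of 300 bases by their number of CG dinucleotides, and red lines mark the 7 windows of 6 member genes. Herc6 (4) lies in the main body of the distribution below the median of 7, and the other windows lie between 20 and 53.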

How the data were processed

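Heart RNA of 5 3m and 5 20m mice was read on one-colour Agilent arrays, 1 per mouse. The authors deposited scanner files with background-subtracted spot intensity and flags, and a table of log2 values that were quantile-normalized; their processing notes name Feature Extraction 9.1, and the file headers 11.0.1.1. Quantile normalization was applied to the intensity of 60641 probes, values under 5 were raised to 5, and log2 was taken. A probe stayed in if 5 or more of the 10 arrays flagged it well above background, which left 16720 mRNA probes. They were fitted together with the lncRNA probes in limma 3.58.1 in R 4.3.3, with Benjamini-Hochberg adjustment over the mRNA probes. The model was tested on simulated data.

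Groups and replicates followed the labels. Probe names, sequences and loci came from a supplementary list held in part. Its loci were taken as GRCm38, since 672 of 672 probes whose symbol RefSeq holds overlapped that gene's span. The list's own fold changes and p-values were not used. Members and gene lists were chosen with earlier results of these data known, and the genes named are all 7 members, every nameable gene of the pathway lists except 1 that is not reported here, and per probe the most alike probe. P-values measure the spread between mice, and the number of arrays limits the precision. Alternatives were 75th percentile scaling, the authors' table, normexp, other floors and filters, slide, the Gapdh ratio, a replicate block and leaving out each array. Python 3.11.15 (numpy 2.4.6, pandas 2.3.3, matplotlib 3.10.9) served for tables and drawings.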

Additional observations from a re-analysis of the deposited data

Results flagged for a closer look

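Ube2k in 3m replicate 3, with a log2 value of 5.57, stood apart from the other young hearts by more than Dixon's 95% limit for 5 samples (gap over range 0.714). It was the only one of 15 groups tested over the 8 probes, and chance alone passes this limit in about 1 group of 20.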

How the results depend on the processing

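All 8 probes kept a negative age difference under every alternative that tested them. The number of members called lower, 8, was 3 under normexp, 4 with the Gapdh ratio as covariate and 4 where a probe had to be well above background on all 10 arrays, since that filter left only those 4 to test. Under normexp the calls were lost on the log2 limit of 1 alone. With the Gapdh ratio this held for Cul3 and Ube3c only. Over all mRNA probes, 669 were called higher and 1613 lower with age. Normexp gave 247 and 547, a floor of 20 gave 430 higher, no limit on fold gave 2124 and 3695, the Gapdh ratio gave 532 lower and slide 2 alone 1073 lower. Between slides within 3m, 157 were called higher and 740 lower. The counts were 98 higher under 75th percentile scaling, 5 and 224 under normexp, 77 and 477 with a floor of 20, 94 higher with the filter on all 10 arrays, and from 11 to 394 higher and from 137 to 820 lower with 1 array left out. With 1 array left out the slide difference of Herc6 ran from -0.31 to 0.37, turning negative without 3m replicate 2 (-0.31) or 3 (-0.29). The Herc4 probe difference, -0.83, was -0.20 under normexp and -0.33 with a floor of 20, alternatives added after seeing the data. The cause was not tested. With the replicate number as a block the counts were 669 higher and 1612 lower and all 8 members were still called; correlations of same-numbered hearts, -0.36 to 0.27, did not pair the samples. The precision of Fbxw22, Ube2k and Herc4 is limited by signal near background in 20m.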
